A study of Mus musculus with 8 samples.

Results

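The 10 genes described here encode selenoproteins: the glutathione peroxidases Gpx1, Gpx3 and Gpx4, the mitochondrial thioredoxin reductase Txnrd2, the secreted selenoprotein P (Selenop), the small redox protein Selenow, the endoplasmic reticulum (ER) membrane proteins Selenok and Selenos, the methionine sulfoxide reductase Msrb1 and the selenophosphate synthetase Sephs2. They were taken by name from the 22165 genes of the count table and matched by Ensembl identifier, because the older symbol Selp for selenoprotein P now stands for P-selectin. Of these 10 genes, 9 had enough counts to be tested, and Txnrd2 had none. RNA was sequenced from macrophages that were grown out of the bone marrow of C57BL/6 mice in medium with M-CSF, their growth factor, over 7 days. Wild-type cells and cells of Nrf2-/- mice from the Jackson Laboratory, which lack the stress-response transcription factor NRF2, either received no treatment or were exposed for 12 h to dimethyl itaconate (DI) at 250 µM. DI is an ester of the macrophage metabolite itaconate that reacts with thiols. Each of the 4 groups held 2 libraries, and the labels do not say whether these came from separate mice. The knockout affects every cell of the mouse, so the cells had lacked NRF2 throughout their differentiation.

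Selenoproteins carry selenocysteine, the selenium analogue of cysteine, usually in the active site. Selenocysteine is inserted at a UGA codon that would otherwise end translation, which requires a hairpin in the 3′ untranslated region, the binding protein SECISBP2 and a dedicated tRNA. Glutathione peroxidases use glutathione to reduce peroxides, and GPX4 is the family member that reduces lipid hydroperoxides in membranes and so protects cells from ferroptosis. NRF2 is known for driving glutathione synthesis and thioredoxin reductase 1 in cells exposed to electrophiles.

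The selenocysteine codon is the sequence feature that defines the group, so it is shown for the members on which the results turn. Each line gives coding sequence of a GENCODE M21 transcript (GRCm38, the assembly called mm10) from 5′ to 3′, with 1 selenocysteine codon, TGA, in capitals. In the second Selenop line, codons 366 and 375 are also selenocysteine codons and stand in lower case.
Gpx1: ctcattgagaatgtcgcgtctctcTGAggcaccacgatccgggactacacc
Gpx4: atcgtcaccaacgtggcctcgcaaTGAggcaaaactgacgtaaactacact
Selenop, codon 59: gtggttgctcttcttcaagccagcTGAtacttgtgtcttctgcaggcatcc
Selenop, codon 368: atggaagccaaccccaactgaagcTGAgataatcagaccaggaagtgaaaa
Selenok: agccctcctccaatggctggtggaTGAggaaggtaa
Selenos: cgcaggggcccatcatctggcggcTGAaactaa
Msrb1: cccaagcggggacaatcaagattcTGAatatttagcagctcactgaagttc
Sephs2: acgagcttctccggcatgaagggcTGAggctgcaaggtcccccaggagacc

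GENCODE M21 annotates a selenocysteine in 24 mouse genes, and all 10 members are among them. In 9 members there is 1 such codon, whereas Selenop, which carries selenium between tissues, has 10. In 7 of the 10 members a glycine codon follows the first selenocysteine codon, as in the Gpx1, Gpx4, Selenok and Sephs2 lines above, while Selenop, Selenos and Msrb1 have another codon there. The codon lies in exon 1 of 2 in Gpx1 (chr9:108339451-108339453, plus strand), at codon 47 of 202 counted with the stop codon. In Gpx4 (chr10:80054737-80054739, plus strand) it is codon 129 of 254 of the longest annotated frame. In Msrb1 (chr17:24740158-24740160, plus strand) it is codon 95 of 117, in exon 3 of 5. In Sephs2 (chr7:127273731-127273733, minus strand), a gene of 1 exon, it is codon 63 of 453. In Selenok (chr14:29973440-29973442, plus strand) and Selenos (chr7:66088844-66088846, plus strand) only 3 and 2 codons follow it, the stop codon included, as the short lines above show. The first codon of Selenop (chr15:3274848-3274850, plus strand) lies in exon 2 of 5, and the other 9 lie in exon 5. In 6 members the first selenocysteine codon stands more than 50 bases upstream of the last exon junction, the distance being 105 bases in Gpx1 and 66 in Msrb1.

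**Figure D1:**
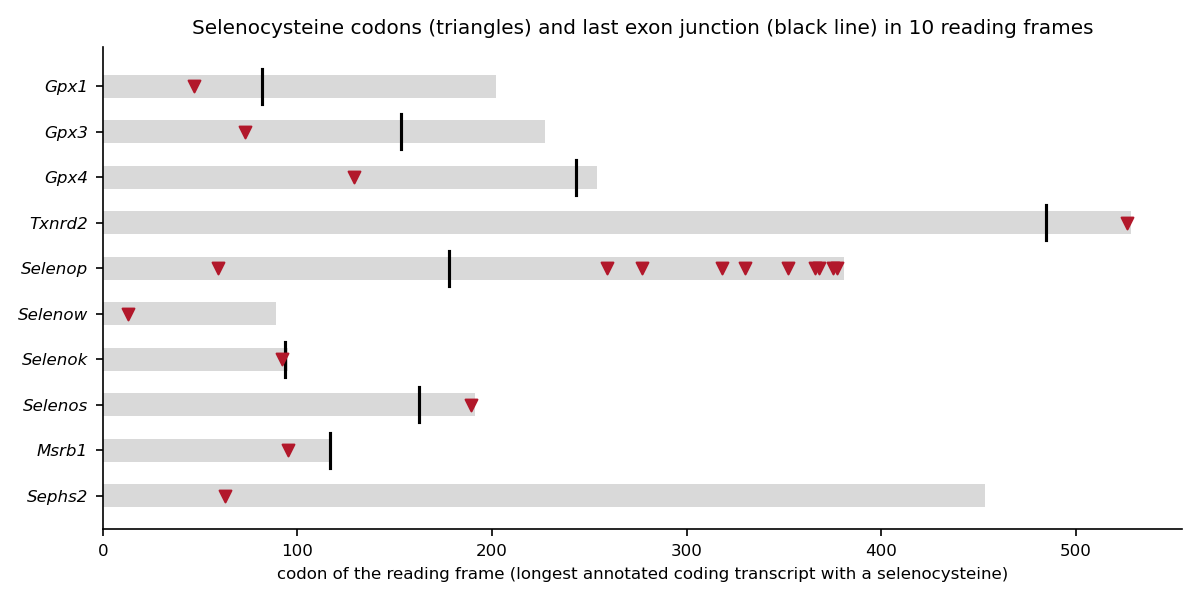
Reading frames of the 10 members in codons from the start codon (x axis), drawn as grey bars, with selenocysteine codons as red triangles and the last exon junction as a black line. Txnrd2, Selenok and Selenos carry the codon within their last 4 codons, Selenop has 10, the last junction of Selenow lies beyond its frame and is not drawn, and Sephs2 has none.

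The libraries held 5554288 to 15680671 counts. CPM, the counts of a gene scaled to library size by the trimmed mean of M-values, are given throughout. Since reads come from transcript 3′ ends, they are used to compare a gene between libraries and not to rank genes. Nfe2l2, the gene of NRF2, stood at 230 to 454 CPM in the wild-type libraries and 40.2 to 88.1 CPM in the knockout libraries, so all knockout libraries were below all wild-type ones. The labels do not give which part of the gene is deleted, so the counts left in the knockout do not measure a functional transcript. The 10 macrophage markers summed to 5407 to 9324 CPM. Among markers of other cells, the 9 neutrophil genes summed to 247 to 383 CPM and the 7 dendritic cell genes to 6.84 to 13.3 CPM. Mast cell and basophil genes summed to at most 4.06 CPM, lymphocyte genes to 2.52 CPM and erythroid genes to 0.699 CPM, and stromal markers are given with the genotypes. In bulk RNA, fewer cells of a type and less RNA per cell cannot be told apart.

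Msrb1 differed most clearly between the groups. The enzyme, in the cytosol and nucleus, reduces the R form of oxidised methionine, including methionines of actin in macrophages. Its level was 44.1 and 40.3 CPM in untreated wild-type libraries and 101 and 90.9 CPM in DI-treated ones. In knockout libraries it was 40.4 and 46.3 CPM untreated and 29.7 and 29.8 CPM with DI. Both wild-type DI libraries were above the other 6 libraries, and both knockout DI libraries were below all others. Msrb1 rose 2.27-fold with DI in wild-type cells, a log2 fold change of 1.18 ± 0.21 (SE; adjusted p = 0.00285, edgeR quasi-likelihood test). In knockout cells the log2 fold change was -0.55 ± 0.21, which did not pass (adjusted p = 0.128, edgeR). The effect of DI in knockout cells minus that in wild-type cells was -1.73 ± 0.30 on the log2 scale (adjusted p = 0.00627, edgeR interaction term). This was the only member whose DI effect was called different between the genotypes. Knockout cells had 3.23-fold less Msrb1 than wild-type cells under DI (log2 fold change -1.69 ± 0.21, adjusted p = 0.000253, edgeR), and without DI the difference was 0.04 ± 0.21. The calls for Msrb1 held under every alternative run, including leaving out each library in turn.

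Selenop, whose product the macrophage secretes, moved the other way. It stood at 548 and 517 CPM in untreated and at 297 and 295 CPM in DI-treated wild-type libraries. Knockout libraries held 495 and 487 CPM untreated and at 295 and 339 CPM with DI. In both genotypes the DI libraries lay below the untreated ones, and the DI libraries of the genotypes overlapped. Selenop fell 1.80-fold with DI in wild-type cells (log2 fold change -0.85 ± 0.21, adjusted p = 0.0160, edgeR). That call was lost without any single wild-type library, at adjusted p-values of 0.0552 to 0.0696 (edgeR). In knockout cells the log2 fold change was -0.63 ± 0.21 (adjusted p = 0.0780, edgeR), and DESeq2's Wald test called it (adjusted p = 0.0361). The DI effects of the genotypes differed by 0.22 ± 0.29 (adjusted p = 0.667, edgeR), so a difference between them was not shown. Selenop shares 439 of its 2842 exonic bases with Ccdc152 on the opposite strand, a gene that had 0 or 1 count in each library. Beside this fall, 3 of 10 macrophage markers also fell with DI in wild-type cells and 4 of 10 in knockout cells. Over all tested genes 8.68% and 4% were called lower in these comparisons. The summed macrophage markers went from between 7306 and 8019 to between 6515 and 7129 CPM in wild type, and from between 8907 and 9324 to between 5407 and 6398 CPM in knockout, and their part in the result was not tested.

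Over the whole group, DI in wild-type cells raised 1 of the 9 tested members, Msrb1, and lowered 1, Selenop, where 6.51% of all 11079 tested genes were called higher and 8.68% lower. In knockout cells 1 of 9 was called lower, Gpx1, against 4% of all genes lower and 4.49% higher. None of the 9 was called higher there by edgeR or DESeq2, and 5 of 9 had an unadjusted p under 0.05, all with negative changes, where 26.4% of all genes had such a p in either direction. The interaction was called for 1 of 9, in the negative direction, where 2.59% of all genes were called negative and 4.96% positive. The median log2 fold change of the 9 members was 0.40 in wild-type and -0.62 in knockout cells, beside -0.02 and 0.00 over all genes tested. In the interaction 8 of the 9 had negative estimates, with a median of -0.72 beside 0.02 over all genes. With 1 or 2 of 9 members called, the shares do not set the group apart from the background.

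**Figure D2:**
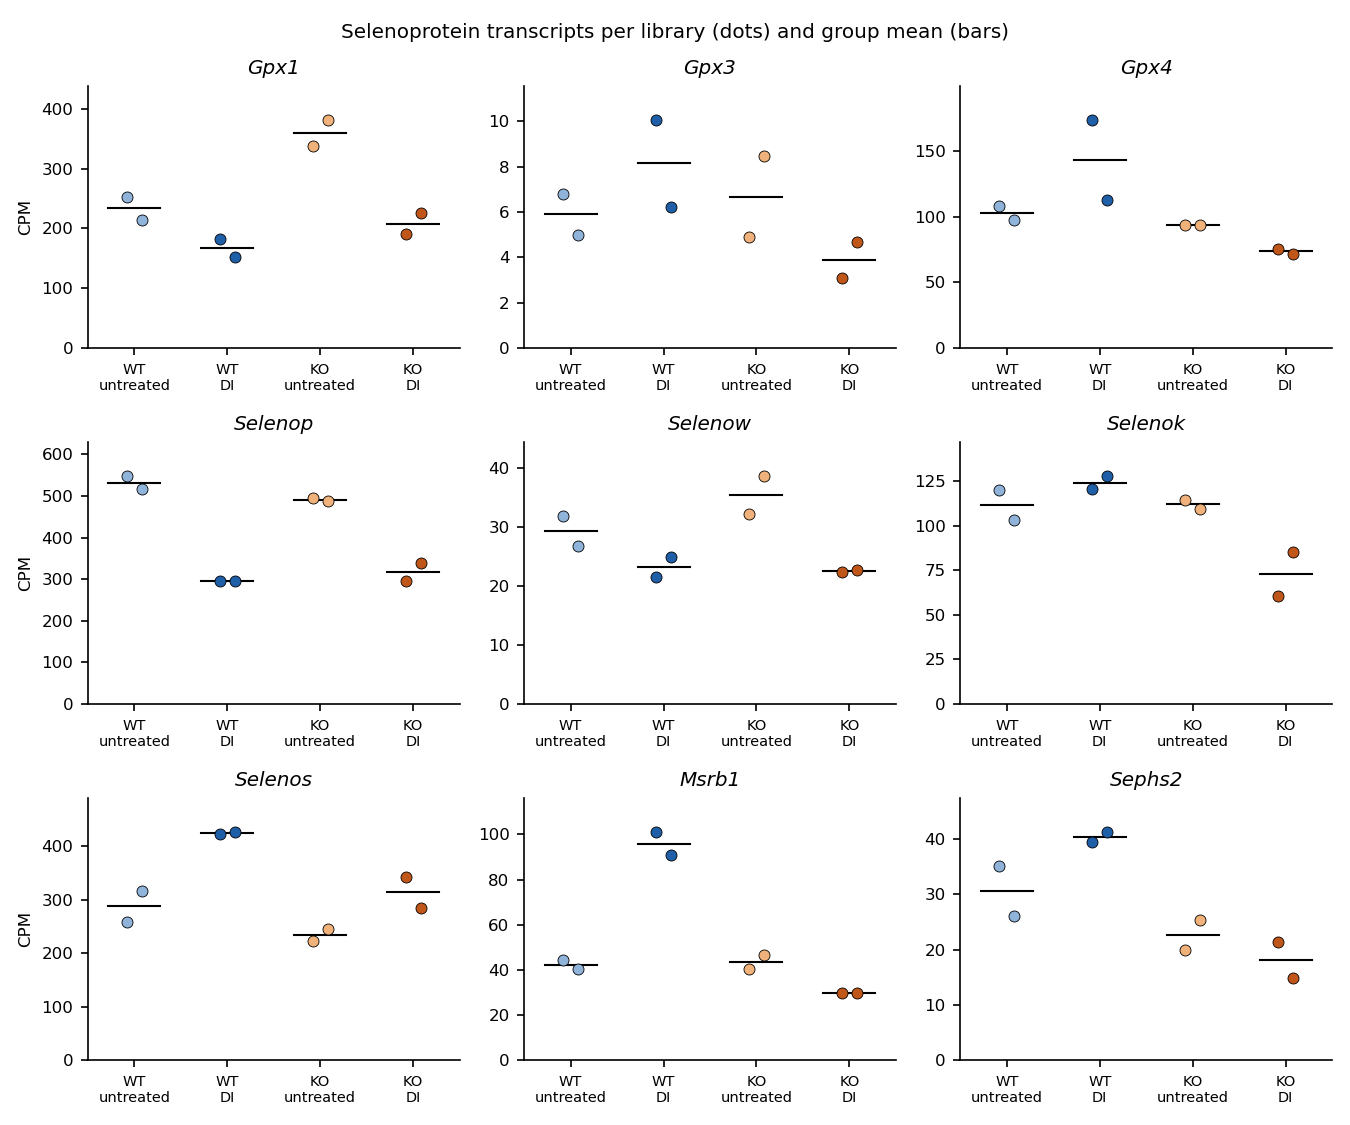
CPM (y axis, linear from 0) of the 9 members with counts in each of the 8 libraries, by genotype and treatment (WT, wild type; KO, knockout); dots are libraries and bars the mean of 2. Msrb1 is highest in wild-type DI libraries and lowest in knockout DI libraries, and Selenop is lower with DI in both genotypes.

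Gpx1, the abundant cytosolic glutathione peroxidase, stood at 252 and 214 CPM in untreated wild-type and at 182 and 152 CPM in wild-type DI libraries. In the knockout it stood at 337 and 381 CPM untreated and at 190 and 226 CPM with DI. The untreated knockout libraries were the highest of all. Gpx1 fell 1.72-fold with DI in knockout cells (log2 fold change -0.79 ± 0.22, adjusted p = 0.0475, edgeR), and in wild-type cells the change was -0.49 ± 0.22 (adjusted p = 0.157). The knockout call stood just under the threshold and was lost under 8 of the 14 alternatives, among them leaving out any one of the 4 knockout libraries. The difference between the DI effects was -0.30 ± 0.31 (adjusted p = 0.568, edgeR).

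Gpx4 stood at 108 and 97.7 CPM in untreated wild-type libraries and at 173 and 113 CPM with DI. The knockout libraries held 93.4 and 93.6 CPM untreated and 75.1 and 71.9 CPM with DI. The wild-type DI libraries were the highest and the knockout DI libraries the lowest, although the 2 wild-type DI libraries were far apart. Neither the wild-type change of 0.48 ± 0.24 (adjusted p = 0.199, edgeR) nor the knockout change of -0.35 ± 0.24 (adjusted p = 0.389, edgeR) was called. The difference between these changes, -0.82 ± 0.34, was not called either (adjusted p = 0.148, edgeR interaction term). Under DI, knockout cells had 1.94-fold less Gpx4 than wild-type cells (log2 fold change -0.96 ± 0.24, adjusted p = 0.0157, edgeR). Without wild-type DI replicate 1 the log2 fold change was -0.64 (adjusted p = 0.109, edgeR), and the call was also lost without either knockout DI library.

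Gpx3, the glutathione peroxidase secreted into plasma, was covered by only 28 to 78 counts a library. It stood at 6.82 and 4.98 CPM in untreated and 10.1 and 6.24 CPM in DI-treated wild-type libraries, which overlapped. In knockout libraries it stood at 4.90 and 8.47 CPM untreated and 3.10 and 4.66 CPM with DI. No comparison of Gpx3 was called. Knockout against wild type under DI gave -1.05 ± 0.39 (adjusted p = 0.0729, edgeR), and the interaction gave -1.26 ± 0.54 (adjusted p = 0.160, edgeR).

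The thioredoxin reductase of mitochondria, Txnrd2, had 0 counts in all 8 libraries, where the limit that a count of 0 allows is 3 counts, or 0.194 to 0.525 CPM. It was not detectable at this depth, and 6866 genes of the table had no count in any library. Txnrd2 was therefore in no test.

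Sephs2 makes selenophosphate, the selenium donor for selenocysteine, and is itself a selenoprotein. It stood at 35.2 and 26.0 CPM in untreated and 39.4 and 41.3 CPM in DI-treated wild-type libraries. In knockout libraries it was 19.9 and 25.3 CPM untreated and 21.5 and 14.9 CPM with DI. All 4 knockout libraries were below all 4 wild-type libraries. Under DI, knockout cells had 2.22-fold less Sephs2 (log2 fold change -1.15 ± 0.26, adjusted p = 0.00922, edgeR). Without DI the difference was -0.43 ± 0.26 and not called (adjusted p = 0.621, edgeR). The call under DI was lost only without knockout DI replicate 2 (log2 fold change -0.91, adjusted p = 0.0599, edgeR). Neither DI effect was called, at 0.40 ± 0.25 in wild type and -0.32 ± 0.26 in knockout. These effects differed by -0.72 ± 0.37 (adjusted p = 0.226, edgeR interaction term), so a difference between them was not shown. The opposite strand of 792 of its 2177 exonic bases carries the annotated transcript Gm44729, which is not in the table.

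The members of the ER membrane take part in the disposal of misfolded proteins. Selenok is a partner of the palmitoyltransferase DHHC6 and is needed for calcium flux in immune cells. It stood at 120 and 103 CPM in untreated and 120 and 128 CPM in DI-treated wild-type libraries, which were close. The knockout values were 114 and 110 CPM untreated and 60.6 and 85.2 CPM with DI. The knockout DI libraries were the lowest of the 8. Under DI, knockout cells had 1.70-fold less Selenok than wild-type cells (log2 fold change -0.77 ± 0.23, adjusted p = 0.0341, edgeR). The call was lost under 7 of the 14 alternatives, and without knockout DI replicate 1 the log2 fold change was -0.54 (adjusted p = 0.208, edgeR). The change with DI inside the knockout was -0.62 ± 0.23 (adjusted p = 0.114, edgeR). The DI effects of the genotypes on Selenok differed by -0.77 ± 0.33, which was not called (adjusted p = 0.156, edgeR interaction term). The annotation names 6 pseudogenes of Selenok and 1 of Gpx4, none of which is in the table, so how reads shared with them were counted is uncertain.

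Selenos, also called VIMP, links the p97 ATPase to the ER membrane. It stood at 258 and 317 CPM in untreated and 423 and 426 CPM in DI-treated wild-type libraries. In knockout libraries it was 222 and 244 CPM untreated and 343 and 285 CPM with DI. It was the only tested member whose estimate with DI was positive in both genotypes, at 0.56 ± 0.22 in wild type and 0.43 ± 0.22 in knockout, and neither passed (adjusted p = 0.101 and 0.234, edgeR). When a trend with A-rich coding sequence, where the oligo-dT primer can anneal, was removed, the wild-type change was called (adjusted p = 0.0221, edgeR). Selenow, a small cytosolic protein with a thioredoxin fold, stood at 31.9 and 26.8 CPM in untreated and 21.5 and 24.9 CPM in DI-treated wild-type libraries. Its knockout libraries stood at 32.2 and 38.6 CPM untreated and 22.3 and 22.7 CPM with DI. The DI libraries lay below the untreated ones in both genotypes, with changes of -0.33 ± 0.22 and -0.66 ± 0.22 that did not pass (adjusted p = 0.337 and 0.0897, edgeR).

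**Figure D3:**
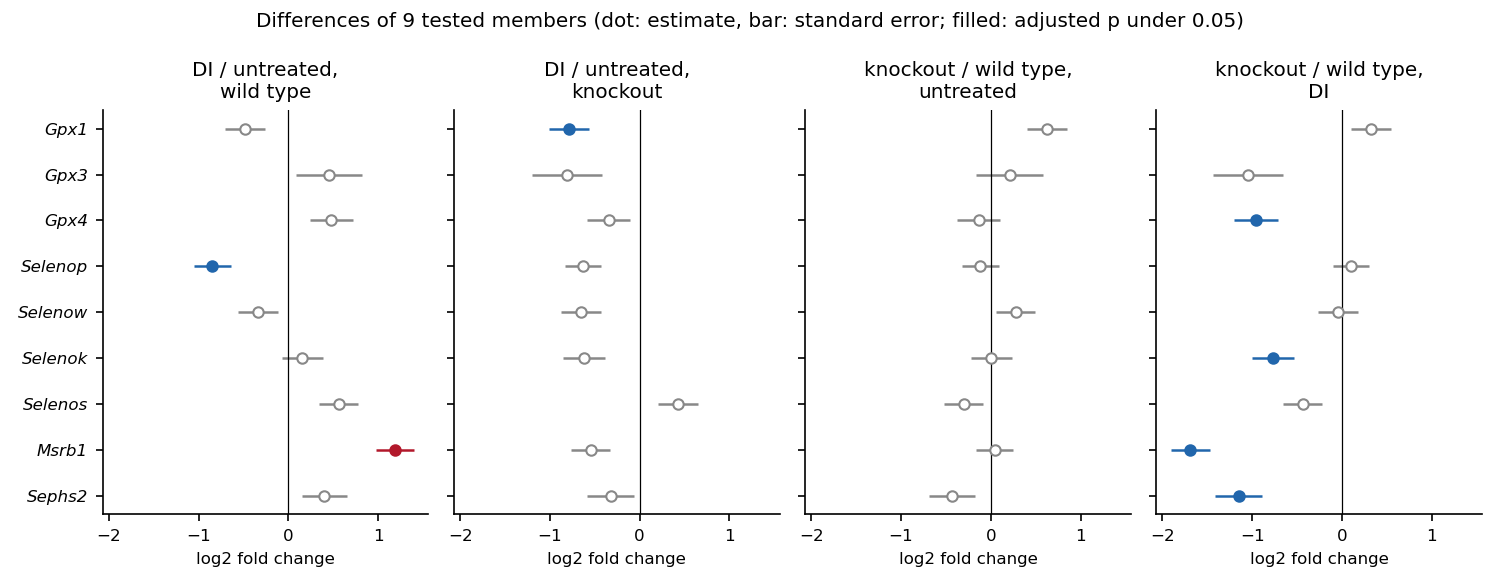
Log2 fold changes (x axis) of the 9 tested members in 4 comparisons, with standard errors as bars; filled dots have an edgeR adjusted p under 0.05, red higher and blue lower. No dot is filled for knockout against wild type without DI, whereas Gpx4, Selenok, Msrb1 and Sephs2 are filled and below 0 under DI.

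Between the genotypes, the untreated cells showed no called member by edgeR or by DESeq2, where 0.0812% of all genes were called higher and 0.524% lower in the knockout. With edgeR 1 of 9 members had an unadjusted p under 0.05, Gpx1, at 0.62 ± 0.22 (adjusted p = 0.313), beside 10.6% of all genes. Under DI 4 of 9 members, Gpx4, Selenok, Msrb1 and Sephs2, were lower in the knockout, where 9.74% of all genes were called lower and 11.4% higher. The median log2 fold change of the members was -0.77 under DI and 0.00 without it, beside 0.01 and -0.01 over all genes tested. Leaving out either knockout DI library or wild-type DI replicate 1 left 2 of the 4 calls. Both of the DI comparisons between treatments share a group with each comparison between genotypes, so these results are not independent.

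Other RNA moved with the same comparison between genotypes. Of 8 tested stromal cell and fibroblast markers, 7 were lower in knockout than in wild-type cells under DI and 2 without it. Of 10 macrophage markers, 2 were lower in the knockout under DI and 0 without it. Over all tested genes 9.74% and 0.524% were called lower in these comparisons. The summed macrophage markers under DI were 6515 to 7129 CPM in wild-type and 5407 to 6398 CPM in knockout libraries. Without DI they were higher in the knockout, at 8907 to 9324 against 7306 to 8019 CPM. The 9 genes of the stromal list, of which Lum had no counts, summed to 158 to 220 CPM in wild-type and 65.2 to 76.6 CPM in knockout libraries. The 7 mitochondrial transcripts on the quality list summed to 14947 to 18533 CPM in wild-type DI libraries and 8392 to 12222 CPM in the other 6. The part of these stromal, macrophage and mitochondrial RNAs in the lower Gpx4, Selenok, Msrb1 and Sephs2 was not tested.

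Across the 8 libraries some members varied together and others did not. This is described by Pearson's r of log2 CPM over points that share the 4 groups and the sequencing pool. Msrb1 went with Gpx4 (r = 0.898) and Sephs2 (r = 0.854), whose group means were highest in wild-type DI and lowest in knockout DI libraries. Gpx3 (r = 0.742 with Msrb1) and Selenok (r = 0.710) also had their highest and lowest means in these groups. Gpx1 went with Selenow (r = 0.849) and Selenop with Selenow (r = 0.816), which were lower with DI in both genotypes. Gpx1 and Selenos ran opposite to each other (r = -0.920). Selenos had r = 0.640 with Msrb1 but r = 0.004 with Selenok. Among 7369 other genes with a mean of at least 10 CPM, the 3 most like Msrb1 were Alox5ap (r = 0.995), Nfatc1 (r = 0.990) and Myl12a (r = 0.990). Alox5ap, which helps 5-lipoxygenase make leukotrienes, stood at 154 and 120 CPM in untreated and 389 and 342 CPM in DI-treated wild-type libraries. In knockout libraries Alox5ap stood at 146 and 161 CPM untreated and 95.5 and 98.4 CPM with DI, the same order of groups as for Msrb1. The 3 genes most like Selenop were Ifi204 (r = 0.989), an interferon-inducible gene, Phf11b (r = 0.980) and the adaptor gene Blnk (r = 0.977). Ifi204 stood at 1111 and 922 CPM in untreated and 448 and 417 CPM in DI-treated wild-type libraries, and at 965 and 1029 against 441 and 492 CPM in the knockout.

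The other 14 mouse selenoprotein genes gave 10 that could be tested. With DI, 3 of the 10 rose in wild-type cells, Txnrd1, Dio2 and Selenoo, and 3 rose in knockout cells, Txnrd1, Txnrd3 and Dio2. Over all tested genes 6.51% were called higher in wild-type and 4.49% in knockout cells. Txnrd1, the cytosolic thioredoxin reductase, stood at 106 and 257 CPM in untreated and 675 and 688 CPM in DI-treated wild-type libraries. In knockout libraries Txnrd1 stood at 27.3 and 30.6 CPM untreated and 135 and 151 CPM with DI. It rose by 1.91 ± 0.34 (adjusted p = 0.00272, edgeR) in wild-type and 2.30 ± 0.35 (adjusted p = 0.00415, edgeR) in knockout cells on the log2 scale, although its knockout level stayed far below the wild-type level. Without knockout untreated replicate 1 the knockout rise of Txnrd1 was 2.23 and no longer called (adjusted p = 0.0616, edgeR). Dio2, which activates thyroid hormone, rose by 1.13 ± 0.34 in wild-type and 1.70 ± 0.39 in knockout cells, and both calls were lost without single libraries, untreated replicate 1 of each genotype among them. Selenoo, a mitochondrial pseudokinase, rose by 0.75 ± 0.23 in wild-type cells, a call lost under 12 of the 14 alternatives. In knockout cells Txnrd3 rose by 1.40 ± 0.32, a call lost without knockout DI replicate 1 or either untreated knockout library. Gpx2, the glutathione peroxidase of the gut epithelium, had 1 to 8 counts a library and was not tested. No interaction was called among the 10 by edgeR or DESeq2, and 2 had an unadjusted p under 0.05, beside 26.4% of all genes.

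**Figure D4:**
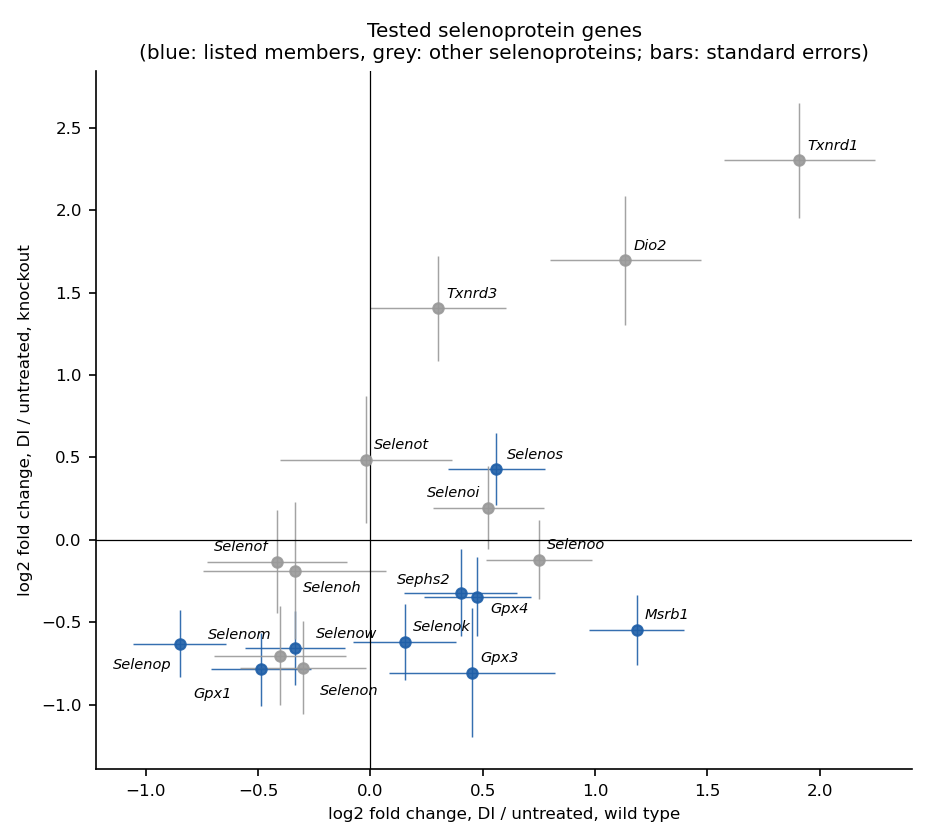
Log2 fold change with DI in wild-type (x axis) and knockout cells (y axis) of the 19 selenoprotein genes that could be tested, with standard errors as bars; blue dots are the 9 tested members and grey dots 10 other selenoproteins. Msrb1 lies at 1.18 and -0.55, and Txnrd1 at 1.91 and 2.30.

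Of 10 tested genes of selenocysteine insertion and selenium handling, 1 rose with DI in wild-type cells, Lrp8. In knockout cells Lrp8 rose and Selenbp1 fell. Among all tested genes, 6.51% were called higher in wild-type cells, and 4.49% higher and 4% lower in knockout cells. Lrp8, a receptor that takes up selenoprotein P, stood at 8.04 and 5.95 CPM in untreated and 68.5 and 47.1 CPM in DI-treated wild-type libraries. In knockout libraries Lrp8 stood at 2.62 and 3.26 CPM untreated and 13.4 and 7.60 CPM with DI. Its log2 fold changes were 3.05 ± 0.32 in wild-type (adjusted p = 8.05e-05, edgeR) and 1.81 ± 0.37 in knockout cells (adjusted p = 0.0135, edgeR), the latter lost without knockout DI replicate 1 or either untreated knockout library. The DI effects on Lrp8 differed by -1.23 ± 0.48 (adjusted p = 0.132, edgeR), which was called only without the filter on low counts (adjusted p = 0.0495, edgeR). Trnau1ap, which binds the selenocysteine tRNA, had a log2 fold change of 0.81 ± 0.26 in wild-type cells (adjusted p = 0.0559, edgeR), which was called under 6 of the 14 alternatives. Under DI, Lrp8 was lower in knockout than in wild-type cells and Secisbp2l, a relative of SECISBP2, was higher. Secisbp2l stood at 97.6 and 63.9 CPM in wild-type DI and 218 and 124 CPM in knockout DI libraries (log2 fold change 1.08 ± 0.31, adjusted p = 0.0270, edgeR). That call was lost without wild-type DI replicate 2 (log2 fold change 0.80) or knockout DI replicate 1 (0.62). The same call was lost with only the 2 groups compared (adjusted p = 0.0547, edgeR). With the A-rich trend removed the log2 fold change was 0.63 and not called (adjusted p = 0.175, edgeR). Selenbp1, a selenium-binding protein without selenocysteine, had 1 to 25 counts a library, and its knockout fall of -2.82 ± 0.78 was lost under 8 of the 14 alternatives.

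Relatives of the members without selenocysteine gave 4 testable genes of 7. Msrb2, the mitochondrial methionine sulfoxide reductase, fell with DI in wild-type cells by 1.52 on the log2 scale (SE 0.29, adjusted p = 0.00469, edgeR), from 13.4 and 9.70 CPM to 3.77 and 4.19 CPM, while Msrb1 rose. In knockout cells Msrb2 changed from 13.1 and 16.6 CPM to 10.03 and 8.82 CPM, which was not called (adjusted p = 0.147, edgeR). The DI effects of the genotypes on Msrb2 differed by 0.85 ± 0.40 (adjusted p = 0.195, edgeR interaction term), which was not called. Of the 14 tested genes of glutathione supply and recycling, 10 rose with DI in wild-type cells, whereas 4 rose and 1 fell in knockout cells. Among all tested genes, 6.51% were called higher in wild-type cells, and 4.49% higher and 4% lower in knockout cells. The interaction was called negative for 8 of the 14, where 2.59% of all tested genes were called negative. Gclm, the modifier subunit of the enzyme that starts glutathione synthesis, stood at 130 and 134 CPM in untreated and 4140 and 4286 CPM in DI-treated wild-type libraries. In the knockout Gclm went from 33.4 and 39.9 to 91.4 and 90.2 CPM. The 4 knockout rises, of Gclm, Slc7a11, Gsr and Me1, each lost the call without at least 1 knockout library. For Gclm the log2 fold change was 1.19 without untreated knockout replicate 1 and 1.44 without replicate 2. The median log2 fold change of the 14 genes was 2.32 in wild-type and 0.25 in knockout cells, while that of the 9 selenoprotein members was 0.40 and -0.62.

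Of 12 tested genes around lipid peroxidation and ferroptosis, 4 rose with DI in wild-type cells, Hmox1, Ptgs2, Ftl1 and Fth1. In knockout cells 3 rose, Hmox1, Ptgs2 and Chac1, the last a glutathione-degrading enzyme. Over all tested genes 6.51% were called higher in wild-type and 4.49% in knockout cells. Ftl1, a subunit of the iron store ferritin, stood at 2852 and 2512 CPM in untreated and 9088 and 10487 CPM in DI-treated wild-type libraries. Its knockout libraries stood at 1912 and 1935 CPM untreated and 1924 and 2338 CPM with DI, and the interaction was -1.72 ± 0.31 (adjusted p = 0.00699, edgeR). Chac1 rose by 1.58 ± 0.33 in knockout cells, from 5.77 and 8.14 to 19.7 and 22.3 CPM, a call lost without either untreated knockout library, and the knockout rise of Ptgs2 lost its call without any single knockout library.

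Of the 18 tested partners of Selenos and Selenok in ER-associated degradation, 3 rose with DI in wild-type cells, Ubxn8, Syvn1 and Edem1, and 1 fell, Erlec1. In knockout cells 1 rose, Ubxn6. Over all tested genes, 6.51% were called higher and 8.68% lower in wild-type cells, and 4.49% and 4% in knockout cells. Syvn1, the ubiquitin ligase HRD1, rose by 1.01 ± 0.25 in wild-type cells, from 20.5 and 17.9 to 32.8 and 44.0 CPM, and stood at 16.6 and 22.6 against 16.3 and 19.5 CPM in the knockout. Of these 5 calls, each was lost without at least 1 library, for Syvn1 without wild-type DI replicate 2 or either untreated wild-type library. The interaction of Syvn1 was called only without the filter on low counts (-1.15, adjusted p = 0.0326, edgeR). Of the 8 tested genes listed with Txnrd2, Prdx5 and Sod2, enzymes that remove peroxides and superoxide in mitochondria, rose in wild-type cells. Nnt, a source of mitochondrial NADPH, and the thioredoxin-binding Txnip fell in knockout cells. All 4 of those calls were lost without at least 1 library, Sod2 for example without untreated wild-type replicate 2 (adjusted p = 0.201, edgeR). Of the 15 NRF2 targets, 7 of which are also in the lists above, 14 rose in wild-type cells, and 6 rose and 1 fell in knockout cells. Among these knockout calls, those of Gclm, Slc7a11, Me1, Txnrd1 and Ephx1 were lost when single knockout libraries were left out. With DI in knockout cells, 940 genes of the whole table were called, and fits that left out 1 library called between 104 and 1088.

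As a look at the DNA near the starts of the genes, the RefSeq promoters of GRCm38.p6, from 250 bases before to 50 after each start, were searched on both strands for the core of the antioxidant response element that NRF2 binds. All 10 members had at least 1 such window. TGACNNNGC was present in 12.4% of all 32851 windows and in that of 1 member, Selenok, as TGACTGGGC at position -44 from the start. The looser TGANNNNGC, which includes the former, was in 41.3% of windows and in those of Selenok and Sephs2, the latter as TGATCTCGC at position -153. Gclm, searched for comparison, had TGACGGTGC and Txnrd1 had TGACAAAGC, both on the reverse strand. Nqo1, searched as well, gave no match to either pattern. It stood at 2.26 to 2.45 CPM in untreated and 85.1 to 106 CPM in DI-treated wild-type libraries. The window of Msrb1 held neither pattern, which says only that these letters are not in this stretch.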

How the data were processed

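The authors deposited raw counts per Ensembl gene and library. Per the labels' protocols, mRNA was primed with barcoded oligo-dT, libraries were pooled after first-strand synthesis and amplified for 12 PCR cycles, giving strand-specific libraries. No molecular identifier is described, so floors cover counting error only. STAR, HTSeq, DESeq2 and the build mm10 are listed in the submitters' processing notes, with no roles. Settings are not given in the sources used here. Such a primer may also bind A-rich stretches within a transcript.

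Identifiers were matched to GENCODE M21, which named 21745 of 22165 genes. The others held 0.129% of counts. Counts passing filterByExpr (minimum count 10, 11079 genes) were scaled by TMM and fitted over all 8 libraries with 1 mean per group in edgeR 4.0.16 under R 4.3.3, using its quasi-likelihood test with robust dispersions. Benjamini-Hochberg adjusted p-values over all tested genes under 0.05 were called. The edgeR steps were tested on simulated counts with changes set in the wild-type DI group alone. That run covered only the comparison of DI with untreated wild-type cells. P-values measure the spread between libraries, which may be technical. Alternatives were DESeq2 1.42.0 and its size factors, no filter, the 2 groups alone, a replicate block, each library left out, and, added after seeing the data, removal of a trend with the most A in any 15 coding bases.

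The members and lists were chosen with earlier results of these data known. All members are named, and from each other list up to 4 genes with the smallest p per DI comparison were eligible. The 3 genes most alike were found for Msrb1 and Selenop. Gpx2, Ccdc152 and the single libraries shown were named after their values were seen.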

Additional observations from a re-analysis of the deposited data

Results flagged for a closer look

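Msrb1 was the member whose response to DI differed between the genotypes by a test of the difference itself. The effect in knockout cells minus that in wild-type cells was -1.73 on the log2 scale (adjusted p = 0.00627, edgeR interaction term), with both wild-type DI libraries above and both knockout DI libraries below their untreated counterparts.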

How the results depend on the processing

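The 9 tested members in 5 comparisons gave 45 results, 8 of them called, and no called change turned its sign under any alternative. Over 621 recomputed values, 580 kept direction and call, 24 lost a call, 4 gained one and 13 uncalled ones turned sign. In wild-type DI cells 1 member was called with only the 2 groups and 1 to 2 with a library left out. In knockout DI cells 2 were called by DESeq2, 0 with the replicate block, 0 with the A-rich trend removed and 0 to 1 with a library left out. For knockout against wild type under DI, 2 to 4 were called with a library left out. The calls of Selenop (lost in 5 of 14 alternatives), Gpx1 (8), Gpx4 (3), Selenok (7) and Sephs2 (1) were the ones lost, and the cause was not tested beyond the smaller number of libraries. The block lost Gpx1 in the knockout (adjusted p = 0.0544, edgeR) and no other call of a member. Replicate numbers were not shown to pair samples, since same-numbered libraries of different groups correlated in their deviations by -0.08 to 0.16. Without the filter Gpx3 was called in knockout against wild type under DI (adjusted p = 0.0215, edgeR), and without the A-rich trend Selenos was too (adjusted p = 0.0283, edgeR). Gpx3, with at most 78 counts a library, is the tested member most limited by depth.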
